A study of Mus musculus with 33 samples.

Results

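The genes described here are the odorant receptors of the mouse whose names run from Olfr1410 to Olfr1505. Every row of either deposited table named Olfr with a number in that range was taken, which gave 55 of 905 odorant receptor rows, 48 of them listed in sorted neurons and 37 in whole tissue. The remaining 850 odorant receptor rows serve as the comparison, with 782 in sorted neurons and 553 in whole tissue. RNA was measured at 3 weeks of age in mice homozygous null (KO), heterozygous null (Het) or wild type (WT) for Dnmt3a, which encodes a DNA methyltransferase that places new methyl groups on cytosine. Mature olfactory sensory neurons, sorted by flow cytometry (mOSN), gave 2 libraries per genotype, and the deposited table holds 1 pooled value per genotype. The whole main olfactory epithelium (MOE) gave 1 library per genotype and exposure, from mice kept for 60 min with 80 µL of either an odor mixture (amyl acetate, acetophenone and octanal in equal parts) or water after 10 min in the cage. The promoter or label that marked the sorted neurons, the design of the null allele and the number of animals behind a library are not given in the sources used here. All values are deposited RPKM, reads scaled to gene length and library size, and the text calls them levels.

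Odorant receptors are G protein-coupled receptors on the cilia of olfactory sensory neurons. Each mature neuron expresses a single allele of a single receptor gene, chosen from a very large family. The RNA level of a receptor in a tissue therefore follows both the number of neurons that chose it and the RNA in each, and these cannot be told apart in bulk RNA. Bound odorant activates the olfactory G protein, which drives adenylyl cyclase and opens a cyclic nucleotide-gated channel. Receptor genes lie in clusters, most of them have their coding sequence in a single exon, and enhancers with homeodomain sites and Olf/Ebf sites take part in the choice.

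Dnmt3a itself (ENSMUSG00000020661) was below WT in every KO and Het column, and its transcript was still counted in KO. It had 56.2 in KO, 120 in Het and 175 in WT mOSN. In MOE it had 48.3 and 56.1 in KO, 66.6 and 50.3 in Het, and 89.0 and 84.4 in WT, with odor and water in that order. The 6 MOE libraries held between 9410063 and 17639584 reads recovered from the deposited values, and the median gene had 222 to 396 reads. Both KO mOSN libraries were made with the NuGEN kit, the Het libraries with 1 of each kit and both WT libraries with ScriptSeq. RNA input was 100 ng for both KO, 200 and 100 ng for the Het and 200 ng for both WT mOSN libraries. Kit, RNA input and genotype therefore cannot be told apart in mOSN.

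The abundance of mature neuron RNA differed between libraries, and every receptor result below stands beside it. The 14 markers of mature olfactory sensory neurons, all of them listed, summed to 31482 in KO odor, 22837 in KO water, 6932 in Het odor, 11602 in Het water, 20110 in WT odor and 27610 in WT water MOE. Omp, the olfactory marker protein, stood at 249 in Het odor against 1582 in Het water, a larger fall than that of the list. Over the 14 markers the median log2 odor over water in Het was -0.38, with 13 lower with odor and 1, Adcy3, higher (84.1 against 77.4). In mOSN the same 14 markers summed to 70241 in KO, 96303 in Het and 101962 in WT, and all 14 were lower in KO than in WT. The 4 horizontal basal cell markers, which should be near 0 after a sort for mature neurons, were all listed there and summed to 77.1 in KO, 17.4 in Het and 9.83 in WT mOSN. Markers of other cell types were counted in WT mOSN too. The 6 sustentacular markers summed to 631 in KO, 573 in Het and 466 in WT, with 4 higher and 2 lower in KO than in WT. The 3 erythroid markers summed to 2122, 1312 and 1374, with 1 higher and 2 lower in KO. The part that neuron content, cells of other types, the kit or the RNA input had in the receptor values was not tested.

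The numbering follows the chromosomes. In the RefSeq annotation, used for names and gene order only because it is of another build than the mm9 build in the submitters' notes, 94 genes carry a number in this range, of which 67 are protein coding and 27 are pseudogenes. Olfr1410 to Olfr1416 lie together on chromosome 1 (7 genes). Olfr1417 to Olfr1441 (23 genes) and Olfr1442 to Olfr1505 (64 genes) lie on chromosome 19. The widest gap between neighbours on chromosome 19, between Olfr1441 and Olfr1442, holds 6 protein-coding genes that are not odorant receptors. That gap was chosen as the border between the 2 runs on chromosome 19 after the values had been seen. Listed in either table were 6 receptors on chromosome 1, 17 up to Olfr1441 and 32 from Olfr1442 on, beside 7, 23 and 64 RefSeq genes. Of the coding genes 53 of 67 were listed, and of the pseudogenes 1 of 27, Olfr1438-ps1. Olfr1433 is among the 17 listed but has no RefSeq entry, so it is not among the 23.

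The coding starts of the most abundant receptors in mOSN show how this group is built from close and distant relatives. Below are the first 50 bases of the coding sequence, with the start codon in capitals, of 5 of the 6 receptors with the highest mean level in mOSN. They are from RefSeq on GRCm38.p6, at chr19:12036691-12036740 (minus strand) for Olfr1423, chr19:12099588-12099637 (minus) for Olfr1427, chr19:12109495-12109544 (minus) for Olfr1428, chr19:12394265-12394314 (plus) for Olfr1440 and chr19:13234252-13234301 (plus) for Olfr1463.
Olfr1423: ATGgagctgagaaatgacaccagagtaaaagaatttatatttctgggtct
Olfr1427: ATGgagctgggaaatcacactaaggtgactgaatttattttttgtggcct
Olfr1428: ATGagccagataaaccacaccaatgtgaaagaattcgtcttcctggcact
Olfr1440: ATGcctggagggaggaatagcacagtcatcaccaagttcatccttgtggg
Olfr1463: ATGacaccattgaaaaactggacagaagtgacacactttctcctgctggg
Aligned without gaps, Olfr1423 matched Olfr1427 at 37 of 50 bases and Olfr1428 at 34, and Olfr1440 matched Olfr1463 at 28. The median over the 903 pairs of 43 listed receptors with such a start was 16 of 50. The 3 alike receptors lie near each other on the minus strand of chromosome 19, with Olfr1424, Olfr1425 and Olfr1426 between Olfr1423 and Olfr1427. Starts are shown only for receptors picked as the highest in mOSN, so the high levels of the 3 are no result about alike receptors. Of the receptors between them, Olfr1425 ranked 447 and Olfr1426 ranked 188 of 830 in mOSN, and Olfr1424 was not listed there.

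Some of the receptors are near copies over the coding start, which can bear on how reads from there are assigned. In 10 of the 903 pairs at least 45 of the 50 bases were identical. Olfr1415 and Olfr1416 were identical over all 50, as were Olfr1446 and Olfr1447. Olfr1417 and Olfr1418, Olfr1471 and Olfr1474, and Olfr1480 and Olfr1487 matched at 49. How the authors' counting treated reads that match more than a single place is not given in the sources used here. The levels of these pairs are uncertain as far as reads match both genes. Only the first 50 coding bases were compared, so likeness over the rest of each gene is not known here.

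For most receptors the annotated start is the start codon, so the reference windows do not reach the promoter. Of the 63 windows for genes with these numbers, each holding 250 bases before and 50 after the annotated start, 53 have ATG right at the start, as do 632 of 884 windows of other odorant receptors and 5.83% of all 32851 windows. Olfr1437 is the receptor among the 6 highest in mOSN whose annotated start is not its start codon. Its window, chr19:12325017-12325316 on the minus strand of GRCm38.p6 from RefSeq, holds the homeodomain core TAATTA, in capitals, across the annotated start.
Olfr1437: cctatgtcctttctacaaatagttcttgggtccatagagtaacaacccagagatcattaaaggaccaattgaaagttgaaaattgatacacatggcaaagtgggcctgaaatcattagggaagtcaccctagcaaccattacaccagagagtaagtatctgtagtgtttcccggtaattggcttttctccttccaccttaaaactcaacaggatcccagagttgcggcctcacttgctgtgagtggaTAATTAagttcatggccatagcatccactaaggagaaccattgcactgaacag
TAATTA, which reads the same on both strands, was found in 13 of the 63 windows (20.6%), against 18.4% of the windows of other odorant receptors and 5.29% of all windows. CCCNNGGG, an Olf/Ebf-type core searched on both strands, was found in 1 of the 63 windows (1.59%), that of Olfr1443, against 3.17% and 13.7%. The motifs do not overlap in the window of Olfr1437, which holds only the first. These counts describe letters in windows that mostly lie upstream of a start codon and not upstream of a transcription start.

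In sorted neurons the highest receptors of the group belonged to the run from Olfr1417 to Olfr1441. Olfr1428 was highest, with 191 in KO, 368 in Het and 324 in WT, and ranked 11 of the 830 listed odorant receptors by its mean. Olfr1437 had 165 in KO, 143 in Het and 242 in WT. Olfr1427 had 102 in KO, 167 in Het and 252 in WT. These are the levels of a few receptors far above the middle of the group. The median over the 48 receptors was 33.1 in KO, 42.0 in Het and 44.5 in WT, against 40.4, 49.3 and 48.3 for the other odorant receptors.

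Olfr1423 and Olfr1440 belong to the same run, and Olfr1463 was the highest outside it. Olfr1423 had 104 in KO, 159 in Het and 251 in WT, close to its relative Olfr1427 in each genotype. Olfr1440 had 85.6 in KO, 139 in Het and 279 in WT. Olfr1463, from the long run, had 180 in KO, 85.6 in Het and 108 in WT, and so was highest in KO. The 6 receptors together made up 38.5% of the summed level of the 48 in KO, 37.0% in Het and 44.2% in WT. At the low end were Olfr1500 at 4.75 in KO and Olfr1499 at 3.45 in WT. Of the tenth of all odorant receptors with the highest means in mOSN, 5 of 83 were from this group.

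**Figure D1:**
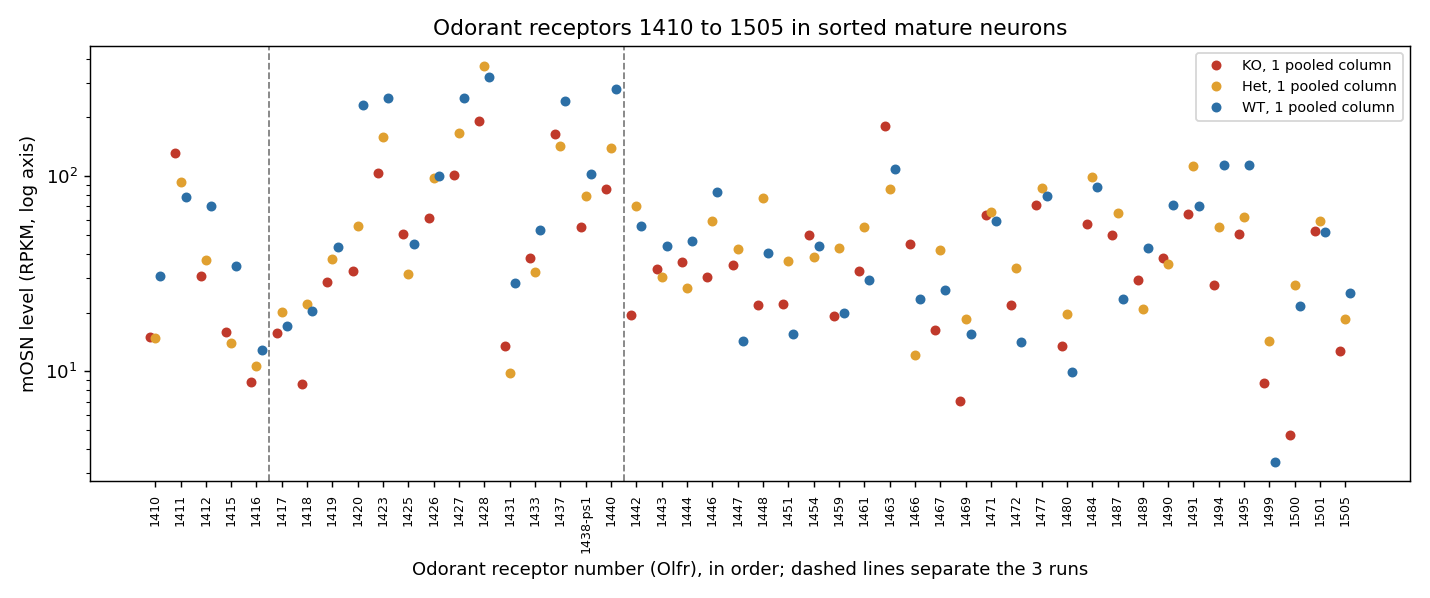
Level in mOSN (RPKM, log axis) of the 48 listed receptors in the order of their numbers, with KO left, Het in the middle and WT right for each receptor; each point is the authors' pooled value, so no error can be drawn, and dashed lines separate chromosome 1 and the 2 runs on chromosome 19. The highest points, up to 368, stand in the middle run, while the run from Olfr1442 on lies mostly lower.

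Between KO and WT mOSN most of the 48 receptors were lower in KO. The level was lower in KO for 34 and higher for 14, with a median log2 ratio of -0.57 (all log2 values were taken after adding 0.5). Other odorant receptors were lower in 511 of 782, with a median of -0.34, and the median over all 14744 genes was -0.13. At least 2-fold lower in KO were 15 of the 48 (31.25%), against 18.7% of the other odorant receptors and 2.84% of all genes. At least 2-fold higher were 3 of the 48 (6.25%), against 6.01% of the other odorant receptors and 17.5% of all genes. With 1 pooled value per genotype there is no replicate error, and none of these differences was tested. Scaled to the mature neuron markers, an alternative added after the data were seen, the direction turned, with 26 higher and 22 lower and a median of 0.066, while the median over all genes moved to 0.49 and that of the other odorant receptors to 0.29. At least 2-fold lower were then 4 of the 48 (0.502% of all genes) and at least 2-fold higher 9 (29.9% of all genes). This scaling multiplies each column by a single factor, which moves the ratios of all genes nearly alike. The median of the 48 therefore had to stay below that over all genes, and its place there is no second result.

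The 5 lowest ratios covered levels from very high to very low. Olfr1420 had 32.7 in KO, 55.4 in Het and 231 in WT, a log2 KO over WT of -2.80. Olfr1500 had 4.75 in KO, 27.9 in Het and 21.6 in WT (log2 KO over WT -2.08). Olfr1494 had 27.8 in KO, 55.1 in Het and 114 in WT (-2.02). In Olfr1420 and Olfr1494 the Het value was also below WT, and in Olfr1500 it was above. Olfr1440, whose levels are given above, came next at -1.70, and Olfr1442, with 19.5 in KO, 70.1 in Het and 55.4 in WT, at -1.48.

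The 5 highest ratios came, with 1 exception, from the run that begins with Olfr1442. Olfr1447 had 35.2 in KO, 42.4 in Het and 14.2 in WT (log2 KO over WT 1.28). Olfr1499 had 8.73 in KO, 14.3 in Het and 3.45 in WT (1.23). Olfr1487 had 50.3 in KO, 64.4 in Het and 23.6 in WT (1.08). In all 3 the Het value was higher still than the KO value. Olfr1466 had 44.9 in KO, 12.1 in Het and 23.5 in WT (0.92). Olfr1411, on chromosome 1, had 132 in KO, 93.6 in Het and 77.9 in WT (0.76). Olfr1447 is identical to Olfr1446 over the coding start, and Olfr1446 ran the other way, with 30.3 in KO, 58.8 in Het and 82.8 in WT, a pair named for that opposition after the values were seen.

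The ratio differed along the numbering. On chromosome 1 the median log2 KO over WT was -1.02, with 4 of 5 receptors lower in KO. From Olfr1417 to Olfr1441 it was -0.83, with 13 of 14 lower. From Olfr1442 to Olfr1505 it was -0.16, with 17 of 29 lower. The median level in the middle run was 52.9 in KO, 67.4 in Het and 102 in WT, against 32.9, 42.4 and 43.1 in the long run. The runs also differ in which receptors were listed. Of the 29 in the long run 17 were listed in mOSN alone, while all receptors of the middle run listed in mOSN were listed in MOE too. Those 17 were more often higher than lower in KO, and most of the rest of the long run were lower. The part this had in the difference between runs was not tested. The runs were compared with values in view and share 1 pooled column per genotype, so these are descriptions without a test.

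**Figure D2:**
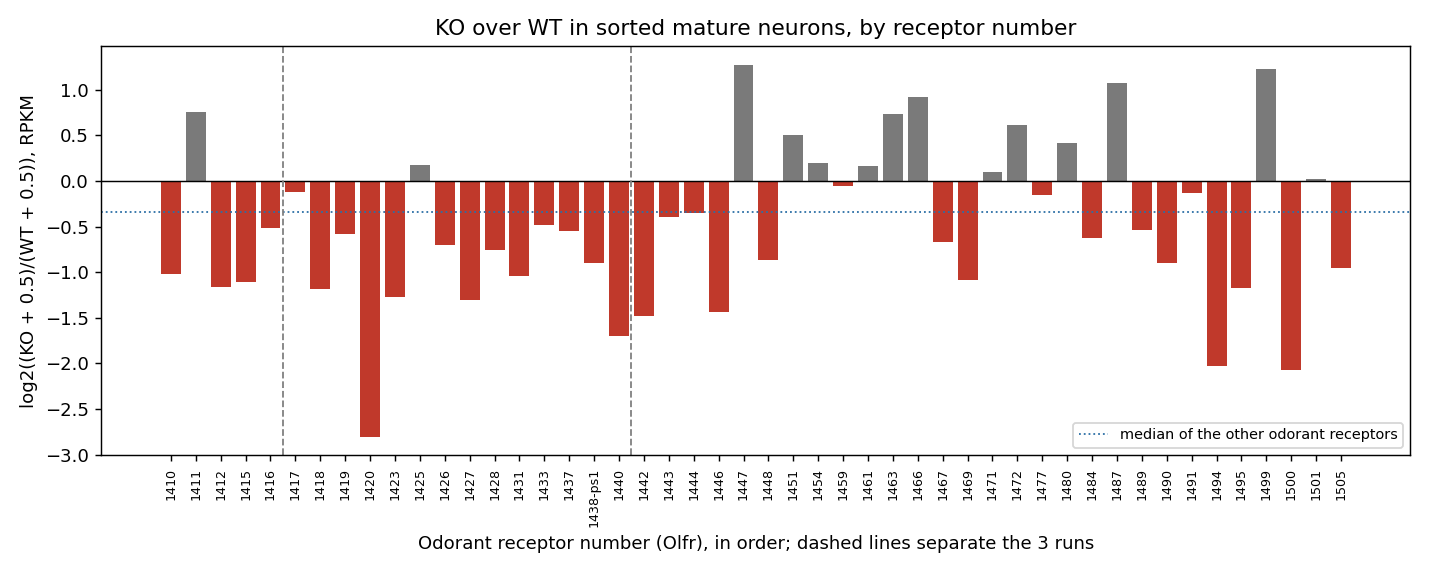
Log2 ratio of KO over WT in mOSN for each of the 48 receptors in number order (0.5 added to both values; 1 pooled value per genotype, no error available), with bars below 0 for receptors lower in KO; the dotted line is the median of the 782 other odorant receptors, -0.34. In the middle run 13 of 14 bars point down, and the 5 highest bars but that of Olfr1411 stand in the run to the right.

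In Het the group was split more evenly. The level was lower in Het than in WT for 26 of the 48 and higher for 22, with a median log2 ratio of -0.19, against 0.03 for the other odorant receptors. At least 2-fold lower were 7 (14.6%, with 8.18% of the other odorant receptors and 2.5% of all genes). At least 2-fold higher were 6 (12.5%, with 8.82% of the other odorant receptors and 6.89% of all genes). The lowest were Olfr1420 (log2 Het over WT -2.05), Olfr1431 (-1.48), with 9.86 in Het and 28.3 in WT, and Olfr1415 (-1.28), with 14.0 in Het and 34.8 in WT. The highest were Olfr1499 (1.91), Olfr1447 (1.54) and Olfr1487 (1.43), the receptors that were also high in KO. Het and KO are compared with the same WT column, so that likeness follows in part from a shared value. By run, the median was -0.90 on chromosome 1 (4 of 5 lower in Het), -0.55 from Olfr1417 to Olfr1441 (11 of 14 lower) and 0.20 from Olfr1442 on (11 of 29 lower). Here too, 17 of those 29 receptors were listed in mOSN alone.

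The tables did not list the same receptors. Both listed 30 of the 55, mOSN alone 18 and MOE alone 7. Of the 18 listed in mOSN alone, 17 lie in the run from Olfr1442 on and the last is Olfr1410 on chromosome 1. The 7 listed in MOE alone were Olfr1414, Olfr1424, Olfr1432, Olfr1441, Olfr1449, Olfr1462 and Olfr1474, and their means over the 6 libraries lay between 5.37 and 24.8. The lowest and highest of the 18 in mOSN had means over the 3 columns of 8.83 (Olfr1499) and 62.5 (Olfr1471). Neither table holds a value of 0, and the rule by which the authors kept a gene is not given in the sources used here, so a receptor that is not listed may have been detected below that rule.

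Receptors alike over the coding start were split between the tables in places. Olfr1471 was listed in mOSN alone, with 63.2 in KO, 65.3 in Het and 59.0 in WT. Olfr1474, which matched it at 49 of the first 50 coding bases, was listed in MOE alone. It had 20.2 and 6.73 in KO, 3.15 and 6.90 in Het, and 5.21 and 30.2 in WT (odor and water in that order). The pair on chromosome 1 was listed in both tables. In MOE, Olfr1415 had 40.8 and 50.3 in KO, 7.16 and 7.96 in Het, and 2.104 and 58.9 in WT. Olfr1416, identical to it over the coding start, had 32.3 and 46.1 in KO, 12.7 and 2.98 in Het, and 4.19 and 48.6 in WT. Both had their lowest or second lowest level in WT odor and their highest in WT water, and in mOSN both were lower in KO than in WT, with 15.9 against 34.8 for Olfr1415 and 8.86 against 12.9 for Olfr1416. Olfr1417 and its neighbour Olfr1418, which matched at 49 bases, had 15.6 and 8.64 in KO mOSN, 20.3 and 22.0 in Het mOSN, and 17.0 and 20.3 in WT mOSN, and so lay farthest apart in KO.

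In the whole epithelium the receptors rested on few reads. Summed over the 37 listed there, recovered reads came to 1385 in KO odor, 922 in KO water, 623 in Het odor, 684 in Het water, 706 in WT odor and 1673 in WT water. Exact 95% Poisson intervals, which cover counting error only, ran from 575 to 674 for the smallest of these sums and from 1594 to 1755 for the largest. A receptor had between 2 and 381 reads in a library, and 22 of the 37 had 100 or more over all 6 libraries. The group's share of all odorant receptor reads was 4.72% in KO odor, 5.93% in KO water, 6.03% in Het odor, 4.69% in Het water, 5.24% in WT odor and 5.90% in WT water. The 95% Wilson intervals were 4.48 to 4.97% in KO odor and 5.56 to 6.31% in KO water. They were 5.59 to 6.50% in Het odor and 4.36 to 5.05% in Het water. In WT they were 4.873 to 5.625% with odor and 5.634 to 6.183% with water. Within each genotype the odor and water intervals did not overlap, and the share was lower with odor in KO and WT and higher with odor in Het. These intervals cover counting error only, and each share comes from 1 library. The direction in WT depends on a single receptor, Olfr1443, which held 381 of the 1673 reads in WT water and 48 of the 706 in WT odor. Without that receptor the WT share was not lower with odor.

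The median level per receptor was lowest in Het odor and nearly level between the KO libraries. It was 26.9 in KO odor, 25.1 in KO water, 7.76 in Het odor, 12.8 in Het water, 12.5 in WT odor and 24.6 in WT water. The other odorant receptors had medians of 31.4 and 18.7 in KO, 7.00 and 13.9 in Het, and 13.3 and 26.4 in WT, with odor and water in that order. In KO the other odorant receptors differed more between odor and water than the 37 did, and in water the 37 had about the same median in KO as in WT while the others were lower in KO. Both Het libraries were the lowest of their exposure for the 37 and for the others, as they were for the summed mature neuron markers.

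**Figure D3:**
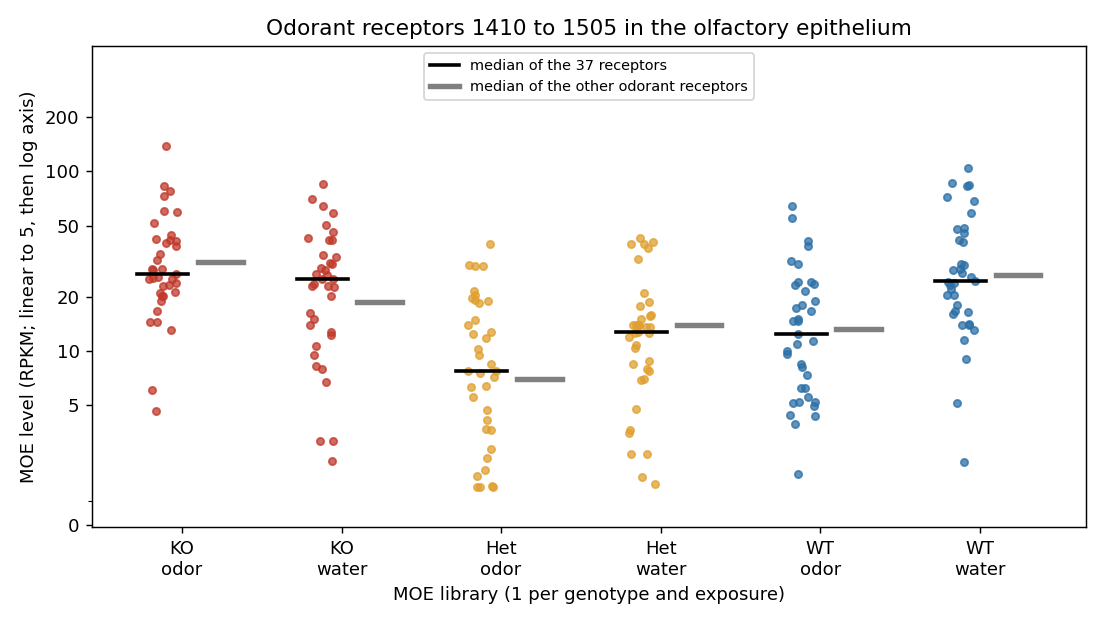
Level in MOE (RPKM; linear up to 5, log above) of the 37 listed receptors in each of the 6 libraries, 1 point per receptor, with a black bar at their median and a grey bar at the median of the 553 other odorant receptors; each library stands alone, so there is no error bar. The black bars lie at 26.9 and 25.1 in KO, 7.76 and 12.8 in Het, and 12.5 and 24.6 in WT (odor and water), beside grey bars at 31.4 and 18.7 in KO, 7.00 and 13.9 in Het, and 13.3 and 26.4 in WT.

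The highest receptors in MOE were only partly those of the sorted neurons. Olfr1420 had 83.2 and 84.7 in KO, 39.6 and 42.5 in Het, and 55.2 and 105 in WT (odor and water in that order here and below) and ranked 30 of 590 listed odorant receptors. Olfr1484 had 139 and 33.6 in KO, 29.8 and 39.3 in Het, and 38.4 and 86.3 in WT. Olfr1440 had 78.1 and 59.1 in KO, 29.8 and 39.3 in Het, and 64.4 and 83.2 in WT, and was the receptor among the 6 highest in both tables. Olfr1425, Olfr1448 and Olfr1443 followed, with means over the 6 libraries of 47.2, 39.2 and 33.8. Olfr1443 and Olfr1426 were counted over gene models 4.57 and 3.53 times as long as that of the median receptor, so their RPKM rests on a longer region. Over the 30 receptors listed in both tables the Spearman correlation between the WT mOSN level and the WT water MOE level was 0.10, and 0.34 for WT odor, against 0.45 and 0.42 over 485 other odorant receptors. These are correlations across genes that share libraries, given as a description.

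Odor exposure was not followed by a receptor response that passed the test across these libraries. Odor against water, with genotype as a block, was fitted with limma over 14602 genes, 2 of which were called higher (0.0137%) and 0 lower (0.0%) at an adjusted p under 0.05. None of the 37 receptors was called. At an unadjusted p under 0.05, 1 was higher and 1 lower, against 3.01% and 1.86% of all genes. Lower with odor were 28 of 37 and higher 9, with a median log2 fold change of -0.41, the same as for the 553 other odorant receptors, while the median over all genes was 0.00. This comparison without calls rests on 2 residual degrees of freedom and does not show that the receptors did not respond.

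Olfr1441 was the receptor whose 3 odor libraries all lay above its 3 water libraries. It had 14.4 in KO odor, 7.53 in Het odor and 4.52 in WT odor, against 3.51 in KO water, 1.71 in Het water and 2.62 in WT water. These levels stand for 14, 11 and 5 reads against 3, 2 and 3. The log2 fold change was 1.48 ± 0.42 (SE; limma adjusted p = 0.882). Libraries that do not overlap in this direction were found for 1 of 37 receptors and for 7.77% of all genes. Olfr1428, the highest receptor in mOSN, had 16.6, 10.2 and 6.25 with odor in KO, Het and WT, against 20.2, 32.5 and 16.1 with water (log2 fold change -1.06 ± 0.35, limma adjusted p = 0.882). The odor and water libraries of Olfr1428 overlapped, since KO odor was above WT water. Taking each direction by itself, the next smallest p-values were those of Olfr1411 (log2 -0.72) and Olfr1426 (-0.61) among receptors lower with odor, and of Olfr1438-ps1 (0.68) and Olfr1495 (0.93) among receptors higher with odor, with the same limma adjusted p.

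The direction of the odor difference was not the same in the 3 genotypes. In KO, 22 of 37 receptors were higher with odor, with a median log2 of 0.40. In Het 27 of 37 were lower, with a median of -0.52, and in WT 31 of 37 were lower, with a median of -0.92. The other odorant receptors had medians of 0.76 in KO, -0.93 in Het and -1.05 in WT. Higher with odor in KO but lower in both Het and WT were 17 of the 37 (45.9%), against 295 of the 553 others (53.3%). The 14 mature neuron markers went the same way, with 13 higher with odor in KO, 13 lower in Het and 12 lower in WT.

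**Figure D4:**
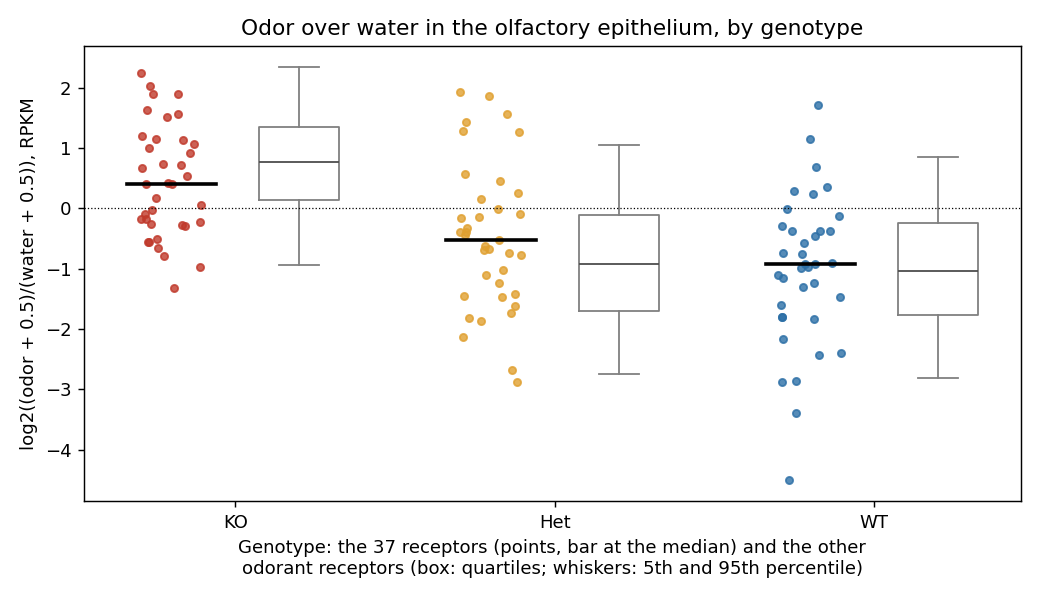
Log2 ratio of odor over water in MOE (0.5 added to both values) for the 37 receptors (points, black bar at the median) and for the 553 other odorant receptors (boxes of quartiles, whiskers at the 5th and 95th percentile), with KO left, Het in the middle and WT right; each ratio is 1 library over 1 library. The medians of the 37 are 0.40 in KO, -0.52 in Het and -0.92 in WT.

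Tested as an interaction, the difference between the odor effect in KO and the common odor effect in Het and WT called no gene. No gene of 14602 was called in either direction (0.0%) and no receptor of the 37. The fit has 1 residual degree of freedom. The estimate was above 0 for 30 of the 37 and below 0 for 7, with a median of 1.00, against 500 of 553 above 0 and a median of 1.69 for the other odorant receptors. At an unadjusted p under 0.05, 13 of the 37 were above 0 and 0 below, against 237 of the 553 others above 0. Of all genes 3.75% were above and 3.36% below. Among the 14 mature neuron markers 13 were above 0, with a median of 0.69.

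Olfr1484 had the smallest p of the group in that test. Its 139 in KO odor against 33.6 in KO water stood for 117 and 25 reads, while it had 29.8 in Het odor against 39.3 in Het water and 38.4 in WT odor against 86.3 in WT water. The difference of odor effects was 2.80 ± 0.49 on the log2 scale (limma adjusted p = 0.318). Olfr1448 had 60.6 and 41.7 in KO, 11.8 and 40.4 in Het, and 12.5 and 68.4 in WT, a difference of 2.60 ± 0.53 (limma adjusted p = 0.380). In both receptors odor was above water in KO and below it in Het and WT. Olfr1477 had 28.6 and 12.7 in KO, 2.03 and 8.47 in Het, and 23.3 and 71.7 in WT, a difference of 2.85 ± 0.60 (limma adjusted p = 0.394). On the other side were Olfr1419 (-1.12), Olfr1423 (-1.88) and Olfr1489 (-1.06), with limma adjusted p-values of 0.767, 0.767 and 0.871. Olfr1423 had 25.3 with odor and 64.1 with water in KO.

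Between KO and WT MOE no receptor was called, and the direction depended on the exposure. Limma, with exposure as a block, called none of 14602 genes (0.0% in each direction), and at an unadjusted p under 0.05 the fit put 2 of the 37 receptors higher and 0 lower (1.27% and 0.966% of all genes). Higher in KO were 29 of 37, with a median log2 fold change of 0.45, against 0.37 for the other odorant receptors. With odor 33 of 37 were higher in KO (median 1.25; others 1.27), while with water 16 were higher and 21 lower (median -0.076; others -0.50). Without the KO water library the median was 1.10, and without the KO odor library it was 0.10. Without the WT water library it was 1.00, and without the WT odor library 0.13.

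A few receptors had both KO libraries above both WT libraries. These were 8 of 37, against 12.4% of all genes and 19.5% of the other odorant receptors. Olfr1425 had 72.9 and 70.5 in KO against 24.1 and 47.6 in WT (log2 fold change 1.07 ± 0.31, SE; limma adjusted p = 1.00). Olfr1411 had 23.1 and 34.04 in KO against 8.10 and 16.6 in WT (1.23 ± 0.36, limma adjusted p = 1.00), and was higher in KO in mOSN too. Olfr1442 had 28.5 and 25.1 in KO against 5.55 and 20.5 in WT (1.27 ± 0.54), and was lower in KO in mOSN. The other 5 were Olfr1417, Olfr1423, Olfr1428, Olfr1433 and Olfr1489. Olfr1449, with 4.74 and 2.68 in KO against 6.23 and 14.0 in WT, was the single receptor with both KO libraries below both WT libraries (13.3% of all genes). Olfr1477 (-1.08) and Olfr1495 (-0.62) had the next smallest p-values among those lower in KO, and their libraries overlapped.

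The order of the runs in MOE was not that in mOSN. In water the median log2 KO over WT was -0.076 on chromosome 1 (3 of 5 lower), 0.08 from Olfr1417 to Olfr1441 (8 of 17 lower) and -1.003 from Olfr1442 on (10 of 15 lower). In mOSN the middle run had been the lower of the pair. The receptors behind these medians differ between the tables, with 14 in mOSN and 17 in MOE for the middle run. For the long run they were 29 in mOSN and 15 in MOE. With odor the medians were 2.40, 0.76 and 1.37, and the middle run was below the long run, as in mOSN. Each of these is a ratio of 1 library to 1 library.

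In Het MOE most receptors were lower than in WT, as were the mature neuron markers. None of 14602 genes was called by limma (0.0% in each direction). Lower in Het were 34 of the 37, with a median log2 fold change of -0.74, against -0.90 for the other odorant receptors. At an unadjusted p under 0.05, 11 of the 37 were lower and 0 higher, against 3.99% and 2.71% of all genes and 112 of the 553 others lower. Both Het libraries lay below both WT libraries for 14 of the 37 (18.0% of all genes and 36.5% of the other odorant receptors). All 14 mature neuron markers were lower in Het, with a median of -1.05, and so were 13 of the 13 genes of the transduction list (-1.06), of which 9 are among those markers. In the fit over both exposures the 9 immature neuron markers were all higher in Het (median 0.41), as were the 5 tested macrophage markers (0.85). None of these markers was called. By exposure, the immature neuron markers were higher in Het in 9 of 9 with odor (median 0.87) but in 4 of 9 with water (median -0.018). The 5 macrophage markers were higher in Het with each exposure. After every library was scaled to its mature neuron markers, the receptor median was 0.29 and that of the other odorant receptors 0.10. The median over all genes moved to 1.05. A single factor per library moves all genes nearly alike, so the receptors had to stay below that median, which is no second result.

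Olfr1411 had the smallest p-value of the group in that comparison. It had 2.298 and 3.83 in Het against 8.10 and 16.6 in WT, which stand for 3 and 4 reads against 8 and 17, and the log2 fold change was -1.80 ± 0.36, at a limma adjusted p of 0.706. Olfr1477 had 2.03 and 8.47 in Het against 23.3 and 71.7 in WT (-3.12 ± 0.76, limma adjusted p = 0.706). Olfr1440 had 29.8 and 39.3 in Het against 64.4 and 83.2 in WT (-1.08 ± 0.28, limma adjusted p = 0.706). In all 3 receptors the Het and WT libraries did not overlap. The receptors estimated higher in Het were Olfr1428 (0.83 ± 0.43), Olfr1441 (0.09 ± 0.51) and Olfr1495 (0.09 ± 0.61), with limma adjusted p-values of 0.706, 0.966 and 0.972. Olfr1428 had 10.2 and 32.5 in Het against 6.25 and 16.1 in WT.

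The genes that carry the receptor signal, bring receptors to the cilium or act on receptor choice were read from the same columns. None of the 13 transduction genes, 3 receptor transport genes or 11 genes of receptor choice was called in any of the 4 MOE comparisons. The transduction genes, among them the channel subunit Cnga2 and adenylyl cyclase Adcy3, were higher with odor in KO in 13 of 13 and lower with odor in WT in 11 of 13. In mOSN 13 of 13 were lower in KO than in WT, with a median log2 of -0.67, beside -0.64 for the mature neuron markers, which share 9 genes with them. The receptor choice genes were lower in KO mOSN in 9 of 11, with a median of -0.46.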

How the data were processed

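Members and gene lists were chosen with earlier results of these data known. The authors deposited RPKM values, per the file names and labels, in 2 tables. The submitters' processing notes name featureCounts, DESeq, STAR 2.3.0, Bowtie2 2.1 and Picard 1.64 and the builds NCBIM37 and mm9; their order, the handling of reads with several matches and the formula are not given in the sources used here. The mOSN table has 14744 genes with values (7 empty rows were dropped). Each genotype has 1 pooled column there, so the planned mOSN test could not be made and its depth is unknown. The MOE table has 14613 genes. For all of them the RPKM could be written as whole reads times a gene and a library factor, exact up to a divisor shared by a gene's 6 values. The tolerance of 1e-06 is a distance from a whole read number, to which a far smaller relative term was added. On simulated data 98.4% of genes came back exactly. Of 33 samples, 21 without a processed table were not analysed here.

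MOE values were taken as log2(RPKM + 0.5) for genes at 0.5 or more in at least 2 libraries and fitted with limma 3.58.1 in R 4.3.3 (empirical Bayes with a trend; two-sided p-values adjusted by Benjamini-Hochberg over 14602 genes; threshold 0.05). A log2 change on this scale understates the change of low genes. No label ties libraries to separate animals, so the p-values cover only the spread among these 6 libraries, which may be technical, and odor and genotype tests take their error from differences in odor effect between genotypes. limma was tested on simulated data. Genes named are the 6 highest by mean in each table, the 3 smallest p-values in each direction per MOE comparison (no member was called), and in mOSN the 5 largest and 5 smallest ratios of KO over WT and 3 of Het over WT; others named are said to be so. Of 55 Ensembl identifiers 40 were found in the name table, all with the same symbol. Alternatives covered pseudocounts, filters, scalings, the trend, limma's voom on the recovered reads, folds and left-out libraries.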

Additional observations from a re-analysis of the deposited data

Results flagged for a closer look

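The odor difference of the 37 receptors in the epithelium went opposite ways between genotypes, with a median log2 odor over water of 0.40 in KO, -0.52 in Het and -0.92 in WT. No receptor's own difference passed the limma test of the interaction, and the difference between the medians was not tested. The mature neuron markers summed to 31482 in KO odor against 22837 in KO water, to 6932 in Het odor against 11602 in Het water and to 20110 in WT odor against 27610 in WT water; their part in the result was not tested.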

How the results depend on the processing

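No paired analysis was possible because mOSN has 1 pooled column per genotype and MOE 1 library per group, so no replicate number is shared; genotype and exposure were blocked in MOE instead, and odor without the genotype block called no member either. The cause of the shifts below was not tested. For KO against WT in MOE the members' median was -0.076 in the water libraries alone. Scaling to mature neuron markers, added after seeing the data, gave a median of 0.29 for Het against WT in MOE. It called 2 members there (Olfr1428 higher, Olfr1477 lower), but also 4777 genes higher and 11 lower of 14602 and 31 of the 553 other odorant receptors, as the median over all genes moved to 1.05. It gave a median of 0.37 for the odor effect in KO against WT and Het, and of 0.066 for KO against WT in mOSN, where 4 members were then at least 2-fold lower and 9 higher (0.502% and 29.9% of all genes; 5.63% and 20.2% of other odorant receptors), and 3 were at least 2-fold lower in Het (2.09% and 6.91%). Scaled to other odorant receptors, 8 were at least 2-fold lower in KO mOSN and 5 higher (1.35% and 22.0% of all genes; 12.4% and 8.57% of other odorant receptors). At 1.5-fold, 23 were lower and 7 higher in KO mOSN (15.9% and 25.4% of all genes), and 16 lower and 11 higher in Het (7.64% and 14.7%). At 4-fold the counts were 3 lower and 0 higher in KO (0.224% and 3.01%) and 1 lower and 0 higher in Het (0.366% and 0.726%). Of the other odorant receptors, 36.6% were lower and 12.1% higher in KO at 1.5-fold, and 17.9% and 21.0% in Het. At 4-fold their shares were 2.17% and 0.256% in KO and 1.28% and 1.02% in Het. With quantile normalization Olfr1441 was at a log2 of -0.089 for Het against WT in MOE. Leaving out each MOE library in turn, the members' median kept its sign, but for some of the libraries it moved by over 1.5 times. It was -0.77 for odor without either KO library and -0.06 without either WT library. For KO against WT it was 0.10 without KO odor, 1.10 without KO water, 0.13 without WT odor and 1.00 without WT water, and for Het against WT -1.31 without WT odor and -0.38 without WT water. For the interaction it ranged from 0.78 to 1.22, with no test left; without a KO library the interaction could not be fitted. For KO against WT Olfr1477 ranged from -2.50 to 0.35 and Olfr1495 from -1.60 to 0.36, and for Het against WT Olfr1441 ranged from -0.51 to 0.69 and Olfr1495 from -0.89 to 1.07. Over all genes, voom called 6 for odor in place of 2, and leaving out WT water called 24 higher and 3 lower in Het, no member among them. Leaving out receptors of nearly identical protein was not run, since no protein sequence was used here. Depth limits the MOE values: 15 of 37 members had under 10 reads in Het odor and in WT odor.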
